A study of Mus musculus with 5 samples.

Results

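DNA replication genes encode the proteins that load, open and copy the genome in S phase. The 48 genes described here were chosen by name from the annotated gene rows, out of 57186 annotated genes, and all 48 passed the filter on low values that left 16254 genes to test. They cover 12 roles, from the MCM helicase and its loading factors to polymerases, ligase, nucleotide enzymes, the E2F and cyclin E regulators and histone deposition.

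The genes were measured by RNA-seq in Tfr cells, which are regulatory T cells of the B cell follicle, sorted from mouse spleen as live CD4+ Foxp3+ CXCR5+ PD-1+ ICOS+ cells. All mice had been treated with imiquimod, which activates the RNA sensor TLR7, and were taken at 21 days. The Cebpa_KO group held 2 libraries from Foxp3-Cre Cebpa-flox/flox mice, in which Cre driven by Foxp3 removes Cebpa, the C/EBP alpha gene, from cells that make Foxp3. The WT group held 3 libraries from Foxp3-GFP reporter mice, so the Foxp3 allele, too, was not the same in both groups. Each library pooled cells of several mice, the labels give no age or sex, and p-values measure the spread between pools.

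Aligned depth was 6.76 to 7.08 gigabases per library. The labels held for the targeted gene, since Cebpa was at 0.317 and 0.550 scaled TPM in Cebpa_KO libraries and at 12.9, 17.7 and 12.8 in WT libraries. TPM is a level per transcript length, and scaled TPM is that level after each library was set to a common median ratio. Of the 8 Tfr and T cell markers none was at 0, and their sum was 2954 and 3011 in Cebpa_KO and 4197, 4029 and 4173 in WT. Of the 8 markers 6 were called lower (limma, adjusted p under 0.05), against 9.82% of all genes tested. The sort gene Foxp3 was at 6.74 and 5.58 in Cebpa_KO and at 83.0, 107 and 105 in WT. Foxp3 RNA in Cebpa_KO was thus low for cells described as sorted Foxp3+. Whether both groups hold the same cell type was not tested. Xist was at 11.4 and 10.7 in Cebpa_KO and at most 0.0220 in WT, while the Y-linked Ddx3y was at 0 in both Cebpa_KO libraries and at 46.4, 42.0 and 43.2 in WT, so the sex of the mice and the genotype cannot be told apart. WT replicate 3 is given separately throughout, as was set when the genes were chosen. That choice was made with earlier results of these data known, so the order of the libraries below is a description and not a test. In bulk samples such as these, more cells in S phase and more RNA per cell cannot be told apart.

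Replication starts at origins, where the origin recognition complex, CDC6 and CDT1 load a double ring of the 6 proteins MCM2 to MCM7. CDC7 with DBF4 and cyclin E kinases then start CDC45 and the GINS complex on the ring, and the open fork is copied by polymerases held by the PCNA clamp. In dividing T cells most of these genes are switched on together before S phase, when E2F factors are released from the retinoblastoma family, whereas genes of mitosis peak later through other promoter elements.

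The promoter letters are shown because E2F sites are known in many of these genes. The part of E2F in the differences between the groups was not tested. RefSeq promoter windows of the build GRCm38.p6, which run from 250 bases before to 50 bases after the annotated start, were found for 39 of the 48 genes. The E2F letters searched on both strands were TTTCCCGC, TTTCGCGC, TTTGCCGC and TTTGGCGC. The lines below give the 170 bases before the start, 5′ to 3′ on the gene's strand, of those genes that were called higher in Cebpa_KO and have a match wholly before the start. Capitals mark the E2F letters, and in Mcm6 and Mcm5 a pair of matches overlap each other.
Mcm6, chr1:128359706-128359875, minus strand: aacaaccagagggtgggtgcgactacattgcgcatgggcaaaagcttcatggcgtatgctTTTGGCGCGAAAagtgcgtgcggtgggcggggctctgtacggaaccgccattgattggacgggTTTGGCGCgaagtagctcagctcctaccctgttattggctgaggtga
Orc1, chr4:108579284-108579453, plus strand: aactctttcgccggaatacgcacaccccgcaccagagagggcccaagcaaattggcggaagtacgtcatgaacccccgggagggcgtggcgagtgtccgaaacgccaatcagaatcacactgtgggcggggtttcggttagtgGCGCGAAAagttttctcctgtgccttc
Rfc3, chr5:151651209-151651378, minus strand: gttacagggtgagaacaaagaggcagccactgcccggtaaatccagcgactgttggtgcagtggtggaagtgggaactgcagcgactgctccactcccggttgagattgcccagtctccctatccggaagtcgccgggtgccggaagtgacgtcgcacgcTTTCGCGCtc
Mcm5, chr8:75109339-75109508, plus strand: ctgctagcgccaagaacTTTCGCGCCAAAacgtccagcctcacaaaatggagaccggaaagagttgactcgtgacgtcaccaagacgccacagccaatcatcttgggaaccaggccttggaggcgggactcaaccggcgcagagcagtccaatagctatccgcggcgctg

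E2F letters were in the windows of 14 of the 39 replication genes, 35.9%, against 466 of 9303 tested genes with a window, 5.01%. They were in 1 of 21 mitosis genes with a window, 4.76%. The cell cycle homology region (CHR) letters TTTGAA, searched on both strands, were in 8 replication genes, 20.5%, in 15 mitosis genes, 71.4%, and in 14.9% of the tested genes. The median GC content of the windows was 61.3% for replication genes, 59.8% for mitosis genes and 60.3% for tested genes. Of 4813 tested genes with a window at or above 61.3% GC, 5.40% had E2F letters. CCAAT letters, on both strands, were in 23 replication genes, 59.0%, in 17 mitosis genes, 81.0%, and in 43.8% of tested genes. The searched letters of the 3 motifs do not contain each other. Of 10 called genes with a window 7 had E2F letters, and of 29 other replication genes with a window 7 had them. A match is a description of the window and not a measured binding site.

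**Figure D1:**
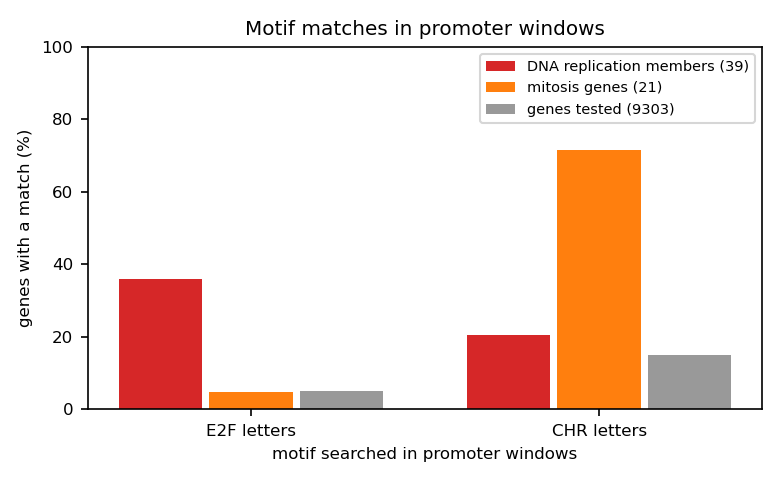
Share of genes, in percent, whose promoter window holds E2F or CHR letters on either strand, for 39 replication genes, 21 mitosis genes and 9303 tested genes with a window. Replication genes stood at 35.9% for E2F and 20.5% for CHR, and mitosis genes at 4.76% and 71.4%.

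Replication genes were higher in Cebpa_KO than in WT almost throughout. Of the 48 genes 12 rose and none fell (limma, Benjamini-Hochberg adjusted p under 0.05 over all genes tested), where 9.93% of all tested genes rose and 9.82% fell. By unadjusted p under 0.05 (limma) the count was 37 higher and none lower, against 6113 of 16254 genes tested in either direction. The median log2 fold change, on the log2(scaled TPM + 1) scale, was 0.63 for the replication genes and 0.01 for all genes tested. Both Cebpa_KO libraries lay above all 3 WT libraries in 42 of the 48 genes, against 28.7% of all genes tested. A further 23 genes had an adjusted p between 0.05 and 0.1 (limma), a band in which the share of all genes tested was not counted. The ratio of group means ran between 0.870 for E2f2 and 2.16 for Gins1, with a median of 1.53.

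The libraries stood in 1 order in most of the genes. Both Cebpa_KO libraries stood above WT replicates 1 and 2, which stood above WT replicate 3, in 42 of 48 genes, against 11.8% of all genes tested. WT replicate 3 was the lowest of the 5 libraries in 46 genes, against 22.5% of all genes tested. Its level was between 47.3% (Rrm2) and 94.1% (Cdt1) of the mean of WT replicates 1 and 2, with a median of 70.8%. Summed over the 48 genes, the scaled TPM was 6706 and 6641 in Cebpa_KO and 4937, 4827 and 3383 in WT. The exceptions to the order were Gins3, Cdc7, Dbf4, Rpa1, Pole and E2f2.

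**Figure D2:**
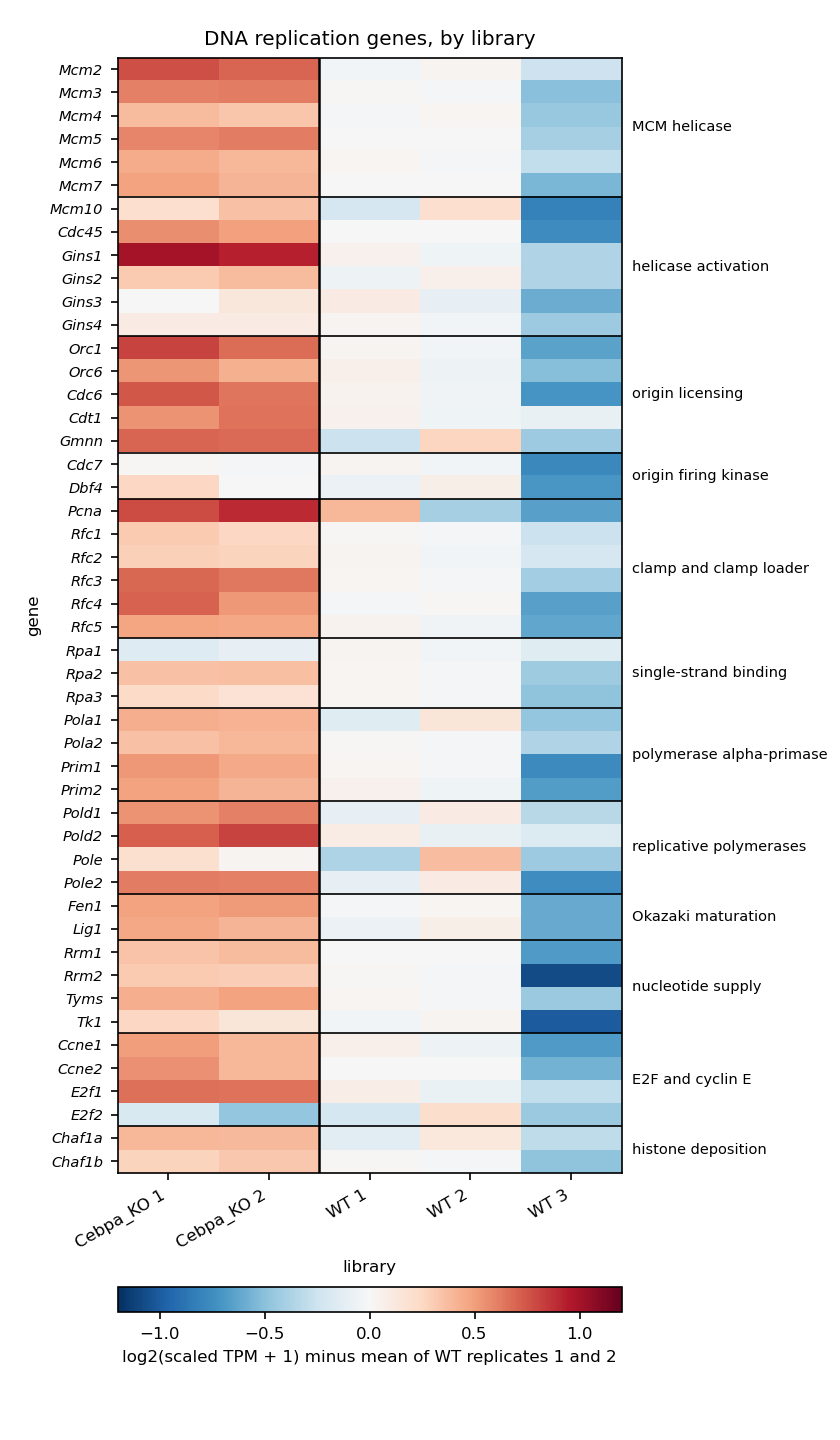
Level of each of the 48 genes (rows, grouped by role) in each library (columns), as the difference on the log2(scaled TPM + 1) scale from the mean of WT replicates 1 and 2. Red is higher and blue lower, and WT replicate 3 was the lowest library in 46 genes.

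The calls depended on WT replicate 3. Without it, 31 of the 48 genes rose and none fell (limma), where 13.7% of all genes rose and 11.5% fell, and the median log2 fold change was 0.44. Of the 12 genes called with all libraries, 11 were among these 31, and the exception was Gmnn. With WT replicate 3 alone for WT, 41 genes rose, and none fell, where 6.53% of all genes rose and 4.16% fell, with a median of 0.98, but the spread then came from the Cebpa_KO pair alone. The median ratio of means was 1.37 over the first 2 WT libraries and 2.00 over WT replicate 3. The calls also depended on having both Cebpa_KO libraries. With either left out, the calls among the 48 genes were lost, and the median log2 fold changes were 0.62 and 0.66. The loss was not limited to the replication genes, since 9 of 15819 genes and 5 of 15905 genes were called higher in these fits, against 1614 of 16254 with all libraries. In those fits the single Cebpa_KO library is assumed to vary like the WT group.

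The Cebpa_KO libraries lay close together in these genes. The median ratio of the higher to the lower of the pair was 1.04, and E2f2, at 1.22, was the sole gene above 1.2. Between WT replicates 1 and 2 the median ratio was 1.05, with 7 genes above 1.2 and Pcna the widest at 1.75. Marker genes of some other cell types differed between the Cebpa_KO libraries. The 8 erythroid markers summed to 2163 and 237 scaled TPM in Cebpa_KO and to 91.3, 61.5 and 716 in WT, and Slc4a1 was at 0 in WT replicate 1. None of the 8 was called, where 9.93% of all genes rose and 9.82% fell. The 8 B cell markers summed to 235 and 52.6 in Cebpa_KO and to 79.0, 68.7 and 119 in WT, with Pax5 at 0.520 and 0.0686 in Cebpa_KO and 0.0601 or less in WT. The 8 myeloid progenitor and neutrophil markers summed to 358 and 76.3 in Cebpa_KO and to 18.9, 12.4 and 85.2 in WT. Between the Cebpa_KO libraries these sums differed by 9.11, 4.47 and 4.69 times. The 6 germinal centre B cell markers summed to 39.4 and 29.3 in Cebpa_KO and 31.2, 26.5 and 36.4 in WT. The 7 plasma cell markers were highest in WT replicate 3, at 839, against 477 and 295 in Cebpa_KO and 276 and 230.0 in the other WT libraries. The 7 macrophage and dendritic markers summed to 37.4 and 29.4 in Cebpa_KO and 28.7, 29.9 and 31.3 in WT, with Xcr1 at 0 in WT replicate 2. The 5 CD8 and NK markers summed to 31.2 and 29.7 in Cebpa_KO and 67.1, 64.2 and 52.2 in WT. The heat shock gene Hspa1a was at 1147 and 1238 in Cebpa_KO, 0.911 and 0.684 in WT replicates 1 and 2 and 690.3 in WT replicate 3. Fos and Jun split the libraries in the same way. Fos was at 583 and 617 in Cebpa_KO, 48.2 and 66.8 in WT replicates 1 and 2 and 619 in WT replicate 3. Jun was at 272 and 304 in Cebpa_KO, 37.1 and 49.5 in WT replicates 1 and 2 and 275 in WT replicate 3. The part of these markers, of Hspa1a, Fos and Jun and of sex in the differences of the replication genes was not tested.

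All 6 genes of the MCM helicase, the ring that unwinds DNA at the fork, were higher in both Cebpa_KO libraries than in any WT library. Mcm2, Mcm3, Mcm5 and Mcm6 passed with all libraries, and all 6 passed without WT replicate 3. Mcm2 (ENSMUSG00000002870, mm39 chromosome 6, 88860456 to 88875762) was at 260.3 and 247 scaled TPM in Cebpa_KO and at 148, 156 and 128 in WT. The groups did not overlap, and Mcm2 differed by 0.82 on the log2 scale (standard error 0.11, adjusted p = 0.0116, limma). Mcm3 was at 415 and 416 in Cebpa_KO and at 275, 269 and 192 in WT (log2 fold change 0.78, standard error 0.17). Mcm5 was at 318 and 326 in Cebpa_KO and at 211, 213 and 161 in WT, a log2 fold change of 0.73. Mcm6, whose promoter carries 3 E2F matches, had the highest level of the ring, at 583 and 563 in Cebpa_KO and 435, 420.5 and 347 in WT. Its log2 fold change of 0.52 (adjusted p = 0.0379, limma) was the smallest of the 12 calls.

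Mcm4 and Mcm7 had the same order of libraries but did not pass with all WT libraries. Mcm4 was at 213 and 206 in Cebpa_KO and at 161, 166 and 119 in WT (limma, adjusted p = 0.0817). Mcm7 was at 307 and 292 in Cebpa_KO and at 218, 221 and 149 in WT (limma, adjusted p = 0.0717). The shares of the 6 genes in their summed scaled TPM stayed within a few percentage points. Mcm6 held 27.8% and 27.5% in Cebpa_KO and 30.04%, 29.1% and 31.7% in WT, and Mcm2 held 12.4% and 12.03% in Cebpa_KO and 10.2%, 10.8% and 11.6% in WT. The sum itself was 2097 and 2050 in Cebpa_KO and 1448, 1445 and 1096 in WT. Mcm7 shares 64 bases with Cops6 and 421 with Ap4m1 on the other strand, and the strand setting of the counting is not given in the sources used here.

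**Figure D3:**
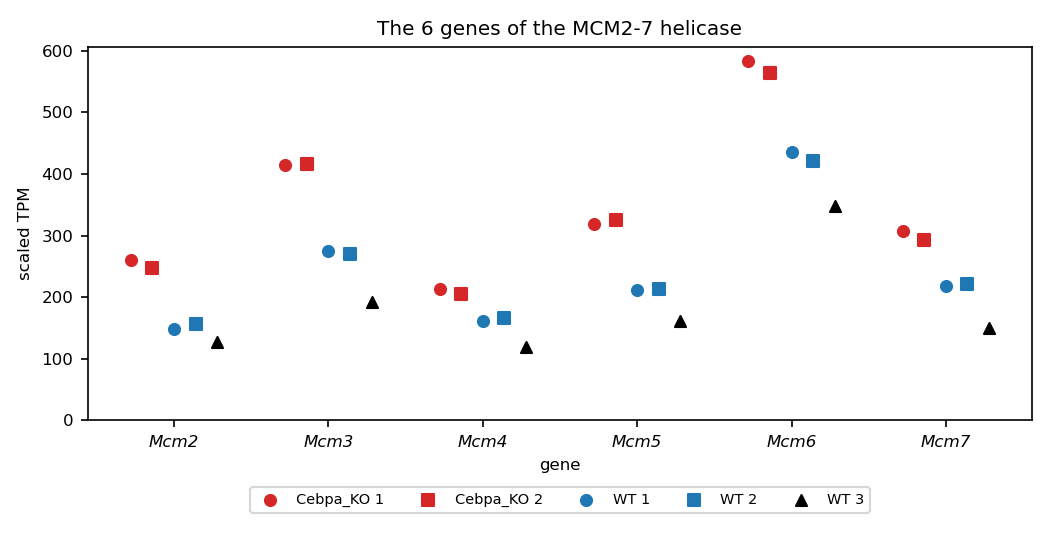
Scaled TPM of Mcm2 to Mcm7 in each library, with Cebpa_KO in red, WT replicates 1 and 2 in blue and WT replicate 3 as black triangles. Mcm6 was the highest of the 6 genes, at 583 and 563 in Cebpa_KO and 347 to 435 in WT.

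Among the factors that activate the helicase, Gins1 was the gene that passed. Gins1 (chromosome 2, 150747320 to 150773200), a subunit of the GINS complex that joins the ring with CDC45, was at 42.5 and 40.7 in Cebpa_KO and at 21.6, 20.03 and 16.04 in WT. Its log2 fold change of 1.08 (standard error 0.15, adjusted p = 0.0120, limma) was the largest of the 48. The other GINS subunits did not pass (limma, adjusted p between 0.0825 and 0.418). Gins2 was at 29.5 and 30.9 in Cebpa_KO and 22.5, 24.6 and 18.1 in WT, and Gins4 was at 104 and 103 in Cebpa_KO and 98.7, 94.3 and 71.1 in WT. Gins3, at 23.1 and 25.5 in Cebpa_KO and 24.7, 21.6 and 15.0 in WT, overlapped between the groups. Gins1 held 21.4% and 20.3% of the summed GINS level in Cebpa_KO and 12.9%, 12.5% and 13.4% in WT, while Gins4 held 52.2% and 51.5% in Cebpa_KO and 58.9%, 58.7% and 59.2% in WT. Gins2 overlaps Gse1 on the other strand over 2758 bases. Cdc45, the helicase cofactor, was at 60.2 and 57.5 in Cebpa_KO and 40.4, 40.8 and 23.6 in WT (limma, adjusted p = 0.0877), and Mcm10, a fork assembly factor, was at 33.3 and 37.0 in Cebpa_KO and 25.01, 33.2 and 16.03 in WT.

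The origin licensing genes were higher by similar factors, and 3 of 5 passed. Orc1, the cell cycle regulated subunit of the origin recognition complex, had the lowest level of the 48 genes in every library. It was at 13.8 and 12.4 in Cebpa_KO and 7.66, 7.23 and 4.42 in WT, a mean 2.04 times higher (log2 fold change 0.95, limma, adjusted p = 0.0469). Cdt1, which brings the MCM ring to the origin, was at 73.4 and 79.6 in Cebpa_KO and 52.1, 48.4 and 47.3 in WT (log2 fold change 0.63, limma, adjusted p = 0.0128). Cdt1 was the gene in which WT replicate 3 lay closest to the other WT libraries. Gmnn, geminin, the inhibitor of CDT1, was at 182 and 179 in Cebpa_KO and 92.9, 133 and 82.3 in WT, and so the loader and its inhibitor were both called higher. Without WT replicate 3 Gmnn missed the threshold (limma, adjusted p = 0.0542, with a range of 0.0358 to 0.203 over all alternatives). Cdc6, the ATPase that loads the ring with the recognition complex, was at 52.2 and 48.4 in Cebpa_KO and 31.8, 29.8 and 18.5 in WT (limma, adjusted p = 0.0520), and Orc6 was at 111 and 103 in Cebpa_KO and 80.0, 73.1 and 53.3 in WT (limma, adjusted p = 0.0623). Orc1, Gmnn and Mcm6 were the calls lost in most alternatives, in 10, 9 and 7 of 16.

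Neither gene of the kinase that fires licensed origins passed. Cdc7, its catalytic subunit, was at 41.1 and 40.4 in Cebpa_KO and at 41.6, 39.8 and 23.3 in WT. Cebpa_KO thus lay within the range of WT replicates 1 and 2, and WT replicate 3 alone was low. Dbf4, the activating subunit, was at 51.6 and 43.3 in Cebpa_KO and at 41.2, 45.3 and 26.2 in WT. Their log2 fold changes were 0.26 and 0.36, with standard errors of 0.26 and 0.25 (limma, adjusted p = 0.503 and 0.338). Without WT replicate 3 they were -0.00 for Cdc7 and 0.12 for Dbf4.

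Of the clamp and its loader, Rfc3 passed and all 6 genes were higher in both Cebpa_KO libraries than in any WT library. Pcna, the sliding clamp that holds polymerases on DNA, was at 437 and 474 in Cebpa_KO and at 336, 192 and 161 in WT. Its log2 fold change of 1.06 was the second largest, but its standard error of 0.31 was wide and it did not pass (limma, adjusted p = 0.0696). Pcna overlaps AV099323 on the other strand over 512 bases, and AV099323 was at 4.18 and 9.84 in Cebpa_KO and at 4.04, 22.7 and 6.84 in WT, highest in WT replicate 2. The copy Pcna-ps2 was at 72.3 and 72.1 in Cebpa_KO and 56.0, 42.2 and 39.1 in WT, so the split of reads between Pcna and these genes is uncertain. Rfc3, a small subunit of the clamp loader, was at 104 and 99.5 in Cebpa_KO and 64.9, 62.7 and 47.4 in WT (log2 fold change 0.80 ± 0.15 standard error, adjusted p = 0.0249, limma). Rfc4 was at 126 and 111 in Cebpa_KO and 76.1, 77.2 and 48.3 in WT (limma, adjusted p = 0.0567), and Rfc5 at 173 and 171 in Cebpa_KO and 128, 120.4 and 79.9 in WT. Rfc1, the large subunit, and Rfc2 had smaller log2 differences, of 0.37 and 0.34.

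No gene of RPA, the complex that binds single-stranded DNA, passed with all libraries, and Rpa2 passed without WT replicate 3. Rpa2 was at 173 and 174 in Cebpa_KO and 137, 133 and 100.3 in WT, and Rpa3 at 69.5 and 66.5 in Cebpa_KO and 59.9, 58.1 and 42.0 in WT, neither past the threshold (limma, adjusted p = 0.0748 and 0.186). Rpa1, the large DNA-binding subunit, was at 153 and 159 in Cebpa_KO and at 174, 167 and 154 in WT, with a log2 difference of -0.08 (limma, adjusted p = 0.522). Rpa1 held 38.7% and 39.7% of the summed RPA level in Cebpa_KO and 46.9%, 46.5% and 52.0% in WT. Gm54808 shares 121 bases with Rpa1 on the same strand, so reads there are uncertain.

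Of the replicative polymerases among the 48 genes, both genes of polymerase delta passed and neither of polymerase epsilon did, a difference that was not tested. It did not extend to the subunits outside the 48. Pole3 and Pole4 of polymerase epsilon were called higher (log2 fold change 0.65 and 0.54). Of polymerase delta, Pold3 was called higher (0.36) and Pold4 lower (-0.58). In polymerase delta, which copies the lagging strand, the catalytic Pold1 was at 123 and 129 in Cebpa_KO and 78.6, 90.7 and 66.6 in WT (log2 fold change 0.68, limma, adjusted p = 0.0296). Its partner Pold2 (chromosome 11, 5822180 to 5828292) was at 135 and 144 in Cebpa_KO and 87.0, 76.8 and 73.1 in WT, a log2 fold change of 0.82 with a standard error of 0.10. Pold2 had the smallest adjusted p of the 48 genes (limma, 0.0106). In polymerase epsilon, which copies the leading strand, the catalytic Pole was at 16.5 and 14.7 in Cebpa_KO and at 10.8, 18.8 and 10.3 in WT. The groups overlapped in Pole, and WT replicate 2 was its highest library. Pole2 was at 33.5 and 33.4 in Cebpa_KO and 20.1, 23.2 and 12.5 in WT (limma, adjusted p = 0.0732), and it overlaps Gm49384 on the same strand.

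The 4 genes of polymerase alpha and primase, which lay down the first primers, were higher in both Cebpa_KO libraries than in any WT library, with none past the threshold. Prim1, the primase catalytic subunit, was at 98.1 and 93.5 in Cebpa_KO and 68.8, 67.0 and 39.6 in WT. Prim2 was at 57.1 and 54.0 in Cebpa_KO and 42.0, 39.2 and 25.1 in WT. The catalytic Pola1 was at 33.7 and 33.4 in Cebpa_KO and 22.2, 27.3 and 17.6 in WT, and Pola2 at 115 and 119 in Cebpa_KO and 91.0, 89.1 and 69.7 in WT. Their adjusted p lay between 0.0570 and 0.0983 (limma), and Prim1, Prim2 and Pola2 passed without WT replicate 3.

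The lagging strand is finished by FEN1, which trims flaps, and by LIG1, which seals the nicks. Fen1 was at 194 and 199 in Cebpa_KO and 136, 141 and 90.9 in WT (limma, adjusted p = 0.0679). Lig1 was at 196 and 189 in Cebpa_KO and 136, 149 and 93.3 in WT (limma, adjusted p = 0.0862). Both passed without WT replicate 3. Fen1 shares 3253 bases with Gm10143 on the other strand, which was at 151 and 146 in Cebpa_KO and 105, 106 and 73.7 in WT.

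The nucleotide supply genes included the pair in which WT replicate 3 lay lowest relative to the other WT libraries. Rrm2, the regulated subunit of ribonucleotide reductase, was at 540.0 and 534 in Cebpa_KO and at 438, 432 and 206 in WT. Tk1, thymidine kinase, was at 228 and 212 in Cebpa_KO and 188, 196 and 95.4 in WT. WT replicate 3 was thus at 47.3% and 49.7% of the other WT libraries, while Cebpa_KO was 1.24 and 1.15 times WT replicates 1 and 2. Rrm1, the large reductase subunit, was at 245 and 251 in Cebpa_KO and 194, 192 and 119.9 in WT, and Tyms, thymidylate synthase, at 110.4 and 114 in Cebpa_KO and 82.5, 79.9 and 59.5 in WT. None of the 4 passed with all libraries (limma, adjusted p between 0.0514 and 0.296), and Rrm1, Rrm2 and Tyms passed without WT replicate 3.

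Of the regulators of S phase entry among the 48, E2f1 rose and E2f2 did not pass. E2f1, an activating E2F factor, was at 49.6 and 49.1 in Cebpa_KO and 32.8, 29.3 and 25.1 in WT (log2 fold change 0.75 ± 0.13 standard error, adjusted p = 0.0203, limma). E2f2, its close relative, was at 26.6 and 21.7 in Cebpa_KO and 25.97, 35.3 and 22.0 in WT, with a log2 difference of -0.17 and an overlap of the groups (limma, adjusted p = 0.596). Ccne1, a cyclin E, was at 67.4 and 62.6 in Cebpa_KO and 49.5, 45.3 and 29.2 in WT, and Ccne2 at 17.2 and 15.4 in Cebpa_KO and 11.4, 11.4 and 7.37 in WT (limma, adjusted p = 0.0992 and 0.0839). Ccne2 overlaps Ints8 on the other strand. The chromatin assembly factor that deposits histones behind the fork was also higher without passing. Its large subunit Chaf1a was at 35.0 and 34.8 in Cebpa_KO and 24.02, 28.99 and 21.2 in WT, and Chaf1b at 91.6 and 95.1 in Cebpa_KO and 76.9, 75.0 and 53.9 in WT (limma, adjusted p = 0.0698 and 0.118). In all, 20 of the 48 genes overlap a gene on the other strand, 11 of them one with a mean of at least 5 scaled TPM.

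**Figure D4:**
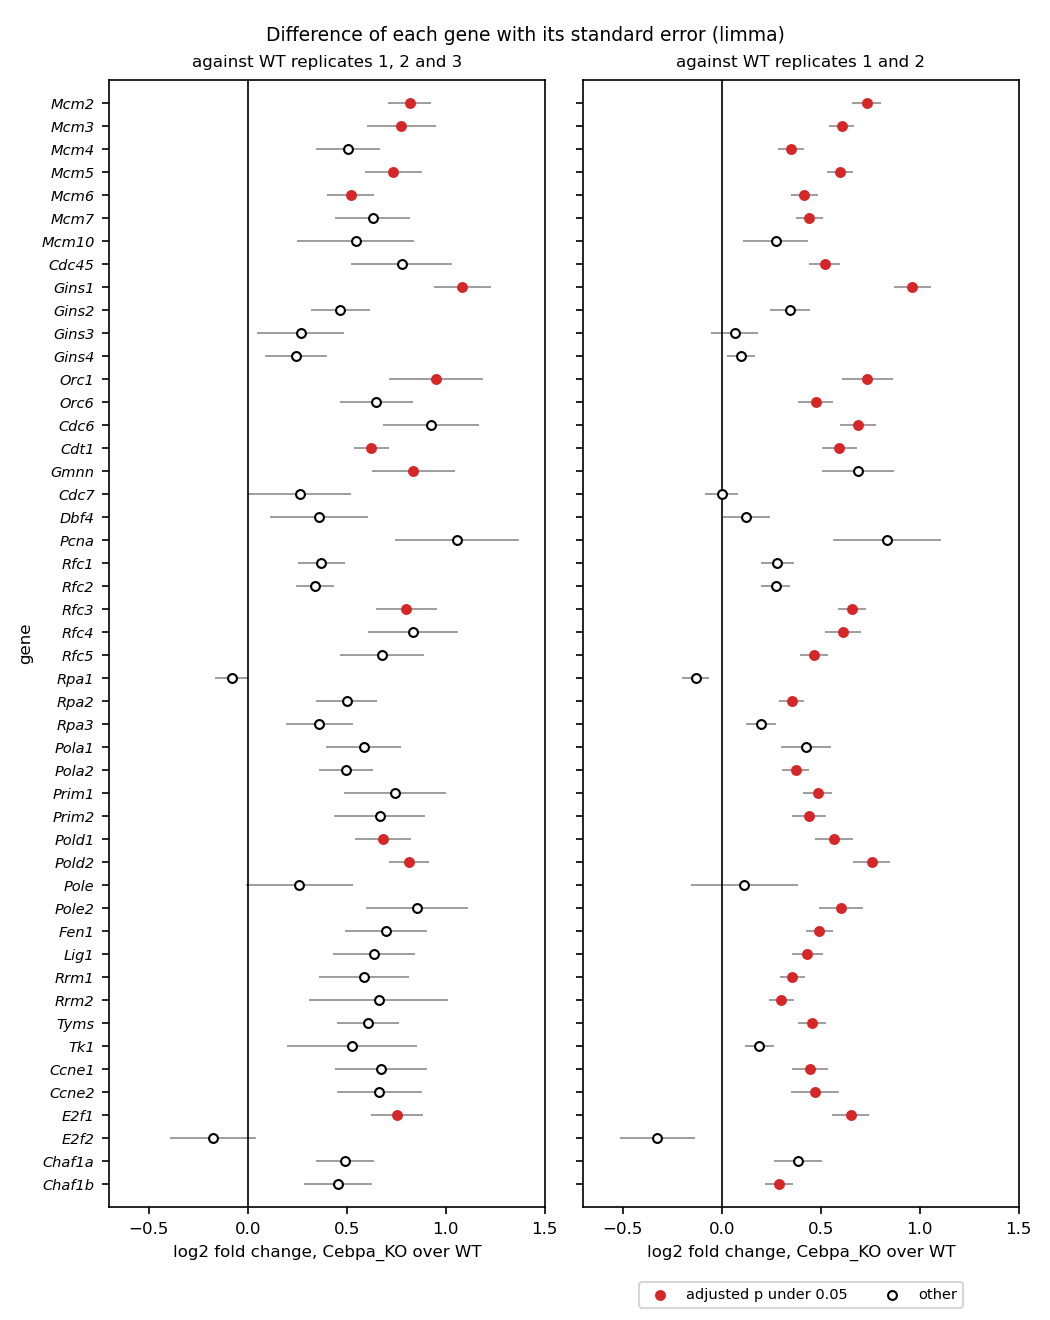
Log2 fold change of Cebpa_KO over WT with its standard error for each of the 48 genes, against all 3 WT libraries (left) and against WT replicates 1 and 2 (right). Filled red points passed an adjusted p of 0.05 in limma, 12 on the left and 31 on the right, and E2f2 and Rpa1 lie below 0 in both panels, with Cdc7 at 0.00 to 2 decimals on the right.

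Mitosis genes were near the level of WT replicates 1 and 2 in Cebpa_KO and low in WT replicate 3. Measured from the mean of WT replicates 1 and 2, the median of the 48 replication genes was 0.47 and 0.41 on the log2 scale in the Cebpa_KO libraries and -0.48 in WT replicate 3. The median of 24 mitosis genes was 0.04 and 0.05 in the Cebpa_KO libraries and -1.12 in WT replicate 3, which was the lowest library in all 24. All tested genes had medians of 0.01 and 0.00 in Cebpa_KO and 0.00 in WT replicate 3. None of the mitosis genes passed with all libraries in either direction (limma), where 9.93% of all genes rose and 9.82% fell. Unadjusted p was under 0.05 (limma) in none of the 24, against 6113 of 16254 genes tested. Without WT replicate 3 none of the 24 rose and 3 fell, Cenpa, Cenpf and Prc1, a share near the 11.5% of all genes that fell in that fit. With WT replicate 3 alone for WT, the median log2 fold change was 1.10 for the mitosis genes and 0.98 for the replication genes. Cdk1, the mitotic kinase, was at 64.7 and 60.4 in Cebpa_KO and 53.3, 52.998 and 24.98 in WT, and Bub1, a spindle checkpoint kinase, at 37.9 and 41.8 in Cebpa_KO and 30.03, 38.2 and 16.6 in WT. The difference between the replication and mitosis lists was described and not tested.

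**Figure D5:**
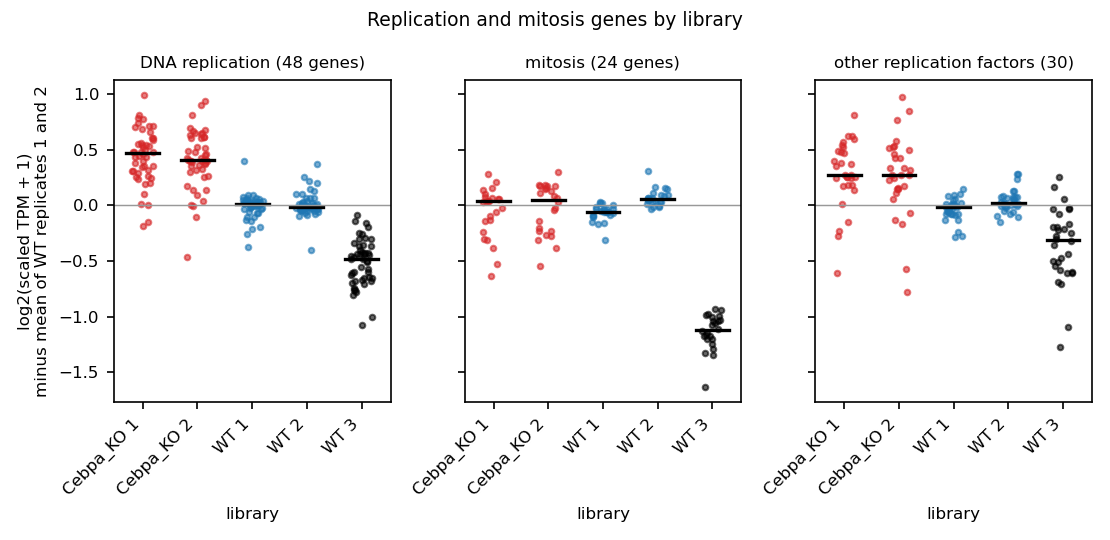
Difference of each gene from the mean of WT replicates 1 and 2, on the log2(scaled TPM + 1) scale, by library, for 48 replication, 24 mitosis and 30 other replication genes, with bars at the medians. Replication genes had medians of 0.47 and 0.41 in the Cebpa_KO libraries, mitosis genes 0.04 and 0.05, and WT replicate 3 was at -0.48 and -1.12.

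The other genes of the pathway are read against the 9.93% of all tested genes that rose and the 9.82% that fell. Of 30 further replication factors 5 rose and 1 fell, with a median log2 fold change of 0.39. The rises were Orc2, of the recognition complex, Pold3, Pole3 and Pole4, which are accessory polymerase subunits, and Dscc1, a subunit of an alternative clamp loader, by 0.55, 0.36, 0.65, 0.54 and 0.96. Pold4, the small subunit of polymerase delta, fell to 88.3 and 90.3 in Cebpa_KO, against 143, 128 and 132 in WT, whereas Pold1, Pold2 and Pold3 of the same enzyme rose. Of 11 genes of replication-coupled chromatin and methylation 4 rose and none fell, with a median of 0.44. They were Hells, a chromatin remodeller, by 0.93, the histone chaperones Nasp and Ssrp1 by 0.72 and 0.47, and Slbp, which binds histone mRNA, by 0.42. Of 21 regulators of S phase entry 1 rose and 1 fell, each a smaller share than over all genes. Cdk4, a G1 kinase, rose by 0.46. Rbl2, the retinoblastoma relative p130 that represses E2F targets in resting cells, fell. It was at 40.8 and 46.8 in Cebpa_KO against 115, 72.4 and 81.3 in WT. The median of that list was 0.32 with all libraries and -0.01 without WT replicate 3. Of 11 checkpoint genes Chek1, the kinase that responds to stalled forks, rose by 0.85 and none fell, a share near that of all genes. The median of the checkpoint list was 0.15 with all libraries and -0.03 without WT replicate 3.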

How the data were processed

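Per the submitters' processing notes, reads were aligned with STAR 2.7.11b and assembled with StringTie 2.1.3b on mm39. Neither the annotation release nor a strand setting is given in the sources used here. Per the file headers, each deposited table gives coverage, FPKM and TPM. The TPM column deposited by the authors is treated as a score, since it holds each signal as annotated genes and again as assembled loci, and the annotated rows were used. FPKM and coverage signal, deposited by the authors, gave the depth as their ratio. These tables give no read counts, so no counting intervals or floors were computed.

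TPM rows of a gene ID were summed, median-ratio scaled across libraries (factors 0.984 to 1.04), filtered at 1 in at least 2 of 5 libraries, and tested as log2(scaled TPM + 1) with limma 3.58.1 (R 4.3.3, intensity trend, Benjamini-Hochberg, threshold 0.05). A pseudocount of 1 understates the change of low genes. The fit was tested on simulated data, with the same spread for all genes and libraries, taken from WT replicates 1 and 2. No simulated library stood apart as WT replicate 3 does, so the simulation does not cover that feature of the data. Motifs and sums were computed with Python 3.11.15 and pandas 2.3.3. The members, lists and markers were chosen with earlier results of these data known. The rule gave values in every library for the MCM genes, called members, the largest differences of each role and members outside their role's pattern. Other members were added after their values were seen. In the pathway lists it named genes past the threshold and up to 2 more with the smallest p. Hspa1a, Fos, Jun, Xist and Ddx3y were chosen with their values known. Values of some single marker genes are not reported here. The alternatives were pseudocounts of 0.1 and 5, no filter or one at 5, array weights, unscaled or quantile-normalized values, robust estimation, no intensity trend, leaving out each library, keeping no WT library but replicate 3, and a replicate block.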

Additional observations from a re-analysis of the deposited data

How the results depend on the processing

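No alternative called any of the 48 replication genes lower, and the median log2 fold change, 0.63, was positive in all 16. Against the 12 rises with all libraries, there were 4 with no filter, 31 with array weights and 41 when WT replicate 3 stood alone for WT. Rises over all genes were 1614 of 16254 with all libraries, and 930 of 38302, 2575 of 16254 and 1014 of 15537 in these fits. Leaving out each library in turn gave 0 to 31 rises, the lowest without either Cebpa_KO library and the highest without WT replicate 3, with 7 and 5 without WT replicate 1 or 2. Over all genes the rises were 9 and 5 without a Cebpa_KO library, and 966, 437 and 2177 without WT replicate 1, 2 or 3, so the count over all genes moved the same way as that of the replication genes in each of these 5 fits. The other alternatives gave 9 to 18. The median was 0.98 when WT replicate 3 stood alone. Single genes that changed sign were Cdc7 (-0.0011 without WT replicate 3), Rpa1 (0.0083 with WT replicate 3 alone) and E2f2 (0.0057 without WT replicate 2 and 0.12 with WT replicate 3 alone), none called in those fits. With 1 library left out, Cdc7 ran between -0.0011 and 0.41 and E2f2 between -0.33 and 0.0057. The cause of these changes was not tested.

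The fit with a replicate block called 18 rises, with a median of 0.45, and 1359 of 16254 genes over all. Whether the numbers pair the libraries is not known, since the libraries share only a number. The deviations of same-numbered libraries from their group means correlated at -0.18 for replicate 1 and 0.27 for replicate 2 across genes. The deviations of the Cebpa_KO pair mirror each other, so these correlations cannot decide the question. The lowest value of the 48 was 4.42 scaled TPM (Orc1 in WT replicate 3). Read counts per gene are not known here, so counting error was not separated from the spread between libraries.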
